A study of Homo sapiens with 15 samples.

Results

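Solute carriers are the membrane proteins that move sugars, amino acids, ions, nucleotides, vitamins and metals into and out of cells and organelles, and their genes share the symbol root SLC. The genes described here are the 92 whose deposited name starts with SLC and a digit, out of 4872 genes present in the 4 deposited tables. They belong to 36 SLC families. By the substrate known for each gene or family, 19 carry amino acids or peptides, 17 organic ions, amines or vitamins, 15 inorganic ions, 10 nucleotides, nucleosides or related cofactors, 9 sugars, 7 metals, 5 carboxylates and 3 lipids. Another 6 have no class here and 1 is an antisense transcript. The RefSeq annotation holds 386 protein-coding SLC genes, of which 89 (23.1%) were in at least 1 table. The other 3 names were SLC26A10, SLC66A1L and the antisense transcript SLC9A3-AS1. RefSeq holds 20052 protein-coding genes in all, beside the 4872 listed genes of any type, so the 23.1% is not read as particular to SLC genes.

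The cells were WI-38, a line of human fetal lung fibroblasts that stops dividing after a limited number of population doublings (PD). RNA sequencing covered 15 libraries in 5 groups of 3. The PD45 control, described in the labels as senescent, carried DMSO, the lipofection reagent lipo3000 and NC, read as a negative-control siRNA. PD30 cells carried DMSO and lipo3000 without NC. Both knockdown groups were PD45 cells with DMSO, lipo3000 and an siRNA against SRC, a non-receptor tyrosine kinase, and are named siSRC2 and siSRC4 after their libraries. PD45 cells with GW8510, an inhibitor of cyclin-dependent kinases, carried lipo3000 and NC but no DMSO. Passage and NC cannot be told apart in the PD30 comparison, nor GW8510 and the absence of DMSO in the other. All cells grew in MEM with fetal bovine serum. Separate cultures are not named in the labels, and the spread that p-values rest on here is that between libraries, which may be technical.

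Some carriers at the cell surface work as partners. SLC7A11 pairs with the heavy chain SLC3A2 to bring cystine in against glutamate, and SLC1A5 brings in glutamine. Amino acid shortage acts through the factor ATF4 on several of these genes, low oxygen through HIF-1 on glucose carriers such as SLC2A1, and oxidants through NRF2 on SLC7A11. Most carriers of the SLC25 family sit in the inner mitochondrial membrane, SLC35 members mostly in the Golgi, SLC30 and SLC39 members move zinc and related metals, and SLC20 members import phosphate.

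Values are the normalized expression signals of the deposited tables, given per library or as mean ± SD (n = 3 libraries). A fold is the higher group mean divided by the lower, except where it is credited to the authors' deposited table. Each table holds only genes that passed the authors' adjusted p of 0.05 and a fold of at least 1.5 against the PD45 control, so of an SLC gene outside a table nothing is known here. The listed genes were tested again with limma on log2(signal + 1) where the mean signal over 6 libraries was at least 1. That second test depends on the authors' selection and understates the change of genes with low signal. Complete separation of 3 against 3 libraries has a two-sided exact permutation p of 0.1, the smallest possible. The signals cannot be compared between genes, because the files do not say whether they are scaled by gene length, and read depth is unknown.

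The knocked-down gene, SRC, had a signal of 11.3 ± 0.580 in siSRC2 libraries and 10.8 ± 1.16 in siSRC4 libraries, beside 19.8 ± 0.766 in PD45 control libraries. Of 11 fibroblast markers, 4 were listed at PD30, 2 with GW8510, 1 with siSRC2 and 0 with siSRC4. Of all genes the authors tested, 15.3%, 11.8%, 2.64% and 8.77% were listed in these comparisons, so such small counts show no shift of markers as a set. COL3A1 was 3.28-fold higher and S100A4 4.75-fold lower at PD30. Of 5 epithelial markers, the keratins KRT8, KRT18 and KRT19 were lower at PD30, and KRT19 was higher with GW8510 and lower with siSRC2. Of 4 immune markers, CD68 was lower with GW8510. Of 5 smooth muscle markers, ACTA2 and CNN1 were lower at PD30, and no endothelial marker was listed. Levels of markers outside the tables were not analysed here, and the part of these shifts in the SLC results was not tested.

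Promoter sequences were read from RefSeq (GRCh38.p14), which gave a start for 71 of the 92 genes. The 250 bases upstream of each start were searched on both strands for short motifs of transporter regulators. The letters ACGTG, the core of the HIF-1 response element and also the inner part of the E-box CACGTG, were present for 25 of 71 SLC genes (35.2%). They were present for 25.3% of protein-coding genes with a RefSeq start. Of the SLC genes higher with GW8510, 8 of 13 held them, beside 25.9% of all genes listed as higher, and 4 of 10 of those lower, beside 25.7%. At PD30 they stood before 2 of 13 higher (24.2% of all listed) and 7 of 19 lower SLC genes (26.4%). With siSRC4 they stood before 4 of 14 higher (26.7%) and 5 of 12 lower (25.2%), and with siSRC2 before 0 of 4 (22.5%) and 0 of 2 (27.4%). Matched SLC genes had more RefSeq starts (mean 1.65, against 1.40 for protein-coding genes), which raises the chance of a match. Stretches outside annotated exons are shown for 3 genes that were higher with GW8510 (SLC38A5, SLC39A8, SLC4A2) and 1 that was lower (SLC20A1), with the motif in capitals, 5′ to 3′ on the strand of the gene. They lie at chrX:48470431-48470495 (minus strand, upstream of SLC38A5), chr4:102345515-102345579 (minus strand, inside SLC39A8 before an internal start), chr7:151062404-151062468 (plus strand, inside SLC4A2 before an internal start) and chr2:112645704-112645768 (plus strand, upstream of SLC20A1).
SLC38A5: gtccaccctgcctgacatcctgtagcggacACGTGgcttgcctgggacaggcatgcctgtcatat
SLC39A8: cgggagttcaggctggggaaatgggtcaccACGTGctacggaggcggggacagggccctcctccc
SLC4A2: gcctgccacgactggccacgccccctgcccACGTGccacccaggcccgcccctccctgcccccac
SLC20A1: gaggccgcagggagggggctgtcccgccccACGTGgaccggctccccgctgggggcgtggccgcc
In each of these 4 stretches the capitals lie within CACGTG, which reads the same on both strands. A match outside annotated exons that is not shown, upstream of SLC19A1 (higher with GW8510), does not lie within CACGTG. The motif thus stood before genes of both directions, and a match describes letters, not binding.

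The amino acid response element bound by ATF4 with C/EBP factors was searched as TGATGNAA and was found for 4 of 71 SLC genes (5.63%, against 3.16% of protein-coding genes). SLC1A5, SLC27A5 and SLC51B held it among the 13 matched SLC genes higher at PD30, and none of the 19 matched genes lower at PD30 did. Over all listed genes, 2.38% of those higher and 3.97% of those lower at PD30 held it. Only the SLC51B match lay outside annotated exons, at chr15:65045137-65045192 on the plus strand, upstream of the gene.
SLC51B: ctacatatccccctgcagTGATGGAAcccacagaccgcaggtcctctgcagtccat
The antioxidant response core TGACNNNGC was present for 13 SLC genes (18.3%, against 14.7% of protein-coding genes), the metal response core TGCNCNC for 51 (71.8%, against 59.8%), and the E2F forms TTGGCGC and TTCCCGC for 6 (8.45%, against 4.27%) and 7 (9.86%, against 9.10%). SLC7A11 and SLC20A2 were among the 21 genes without a RefSeq start in the table used.

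Most of the 92 genes, 71, were listed in a single table, 18 in 2 tables and 3 in 3. SLC genes made up 1.55% of the genes listed at PD30, 1.68% with GW8510, 2.11% with siSRC2 and 2.66% with siSRC4, beside 1.92% of RefSeq protein-coding genes. How many SLC genes the authors tested is not in the files. The plot of fold changes by class shows where the directions within a class were uneven.

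**Figure D1:**
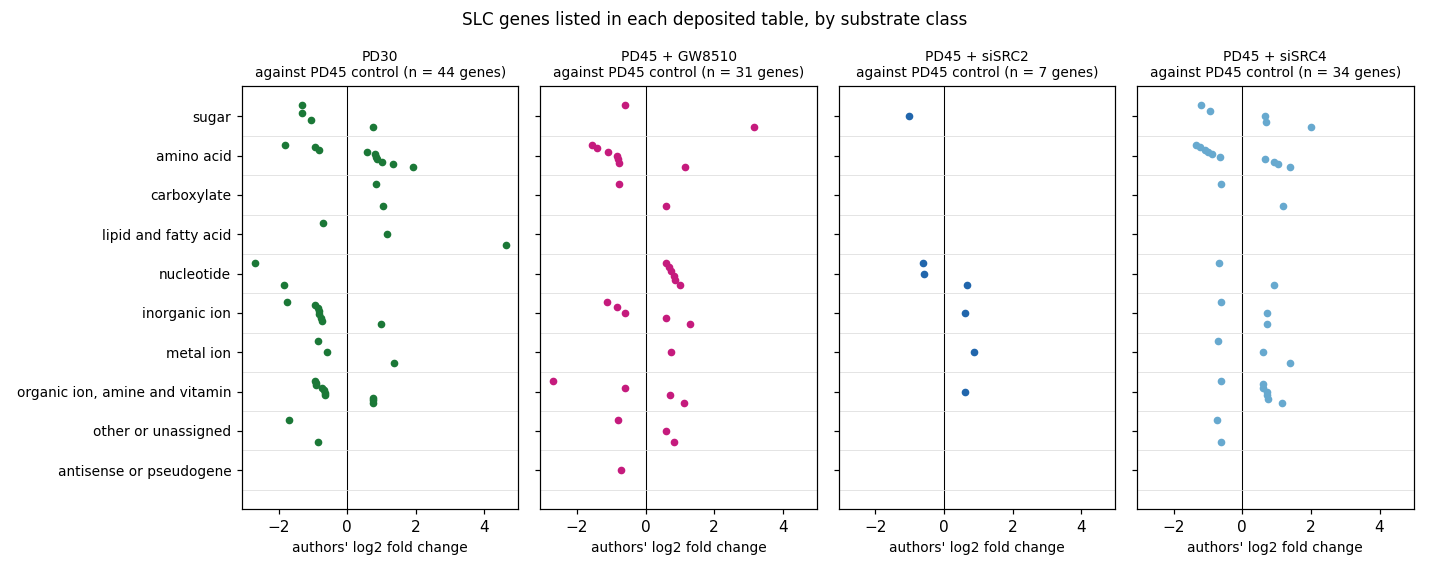
Authors' deposited log2 fold change of each listed SLC gene (points), by substrate class (rows), in the 4 comparisons with the PD45 control (panels); the line marks no change, and genes between -0.58 and 0.58 are not in the tables. Of amino acid carriers, 7 of 10 are higher at PD30 and 6 of 7 lower with GW8510. Of inorganic ion carriers, 7 of 8 are lower at PD30, and all 6 nucleotide carriers listed with GW8510 are higher. Over all listed genes, 53.8% are higher at PD30 and 38.8% with GW8510, and the classes are small.

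At PD30, 44 SLC genes were listed, 17 higher and 27 lower than in the PD45 control. The authors listed 15.3% of the 18575 genes they tested, 8.24% as higher and 7.07% as lower. The median authors' log2 fold change was -0.72 over the SLC genes and 0.64 over all listed genes, where 38.6% and 53.8% of the genes were higher. The PD30 and control libraries did not overlap for 42 of the 44 SLC genes, against 93.6% of all listed genes. In the limma test 40 of 42 genes passed at an adjusted p of 0.05, where 97.3% of all genes tested passed. The exceptions were SLC25A40, a mitochondrial glutathione carrier (adjusted p = 0.0552), and SLC41A2, a magnesium carrier (adjusted p = 0.129), and both had overlapping libraries. SLC29A2 and SLC7A14 were below the minimum signal and passed when no minimum was set. Of the 42, SLC51B, SLC2A9, SLC6A17 and SLC35F3 reached the minimum only through the group where they were high, so that they had to differ and their p-values support nothing. Median transcript GC content was 50.6% for the SLC genes higher and 48.0% for those lower.

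Amino acid carriers formed the group with most genes higher at PD30, 7 of 10 listed, where 53.8% of all listed genes were higher. SLC1A5, the glutamine and neutral amino acid exchanger, had signals of 219, 197 and 198 at PD30 and 104, 99.0 and 100 in the PD45 control. The PD30 libraries were thus all far above the controls, 2.02-fold by the means (log2 difference 1.01, SE 0.07, limma adjusted p = 1.82e-06). SLC3A2, the heavy chain shared by SLC7 light chains, was at 204, 191 and 185 against 111, 105 and 110, a 1.78-fold difference without overlap (adjusted p = 5.28e-06). SLC7A11, the cystine and glutamate exchanger that works with SLC3A2, was at 29.9, 32.1 and 27.3 against 20.1, 16.9 and 14.8, which is 1.73-fold higher at PD30 (adjusted p = 0.000213). Heavy chain and light chain were therefore both higher at PD30, by folds close to each other.

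SLC6A9, the glycine transporter GLYT1, had the largest fold of the class. Its signal was 13.2, 12.3 and 13.2 at PD30 and 2.99, 3.72 and 3.25 in the control, 3.89-fold higher (log2 difference 1.69, SE 0.12, adjusted p = 1.31e-06). SLC66A1L, a relative of the lysosomal cationic amino acid exporter SLC66A1, was 2.33 ± 0.285 against 1.0 ± 0.344. Reads of such close relatives may be shared between copies. SLC38A4 (1.49-fold) and SLC7A14 (1.92-fold, at a control signal of 0.537 ± 0.0681) were the remaining genes that were higher. The 3 that were lower carry neutral or acidic amino acids, as SLC1A5 and SLC6A9, which were higher, also do. SLC1A1, a glutamate transporter, was 8.38 ± 0.495 at PD30 against 16.0 ± 1.15 (adjusted p = 3.97e-05). SLC6A15, a carrier of branched-chain amino acids, was 5.04 ± 0.393 against 8.68 ± 2.58, and SLC6A17, a vesicular carrier of neutral amino acids, 0.553 ± 0.197 against 1.45 ± 0.244. The lowest SLC6A15 control, at 5.76 beside 10.7 and 9.62, still lay above every PD30 library, the highest of which was at 5.33.

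**Figure D2:**
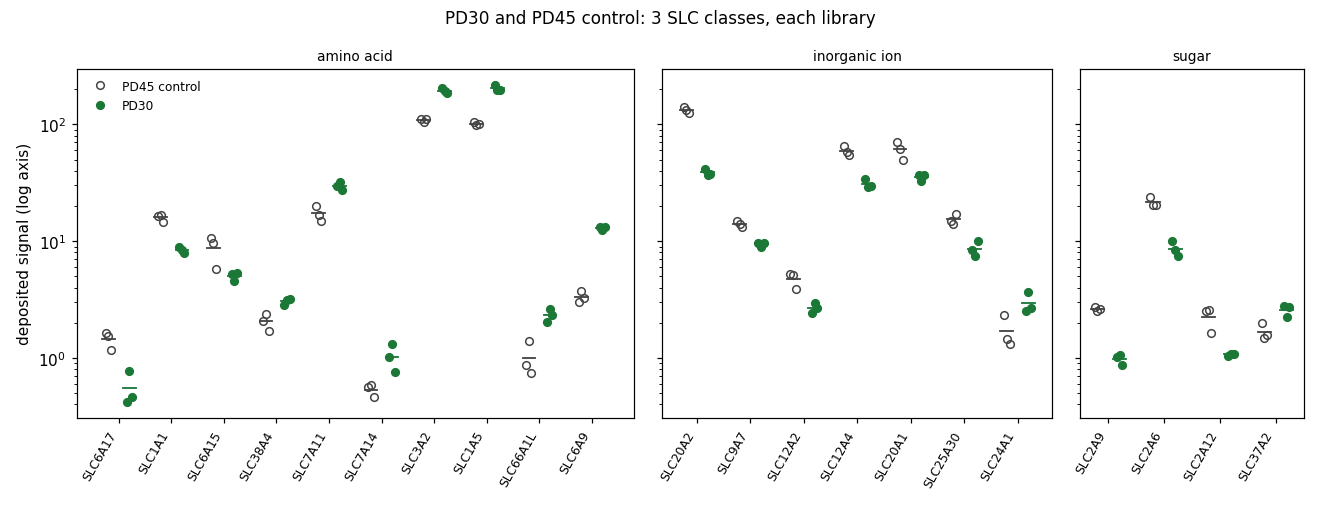
Deposited signal (log axis) of each library for SLC genes of 3 classes (panels) listed at PD30, 1 inorganic ion carrier not drawn, with PD30 filled, the PD45 control open and lines at the group means (n = 3 libraries each). Among amino acid carriers SLC1A5, SLC3A2, SLC7A11 and SLC6A9 sit higher at PD30, while the phosphate importers SLC20A1 and SLC20A2 and the hexose carriers SLC2A6, SLC2A9 and SLC2A12 sit lower.

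On the list of transporter partners and regulators, PHGDH was 4.75-fold higher, ASNS 3.86-fold and PSAT1 3.72-fold at PD30. PHGDH and PSAT1 make serine and ASNS makes asparagine. Of 31 partners and regulators, 6 were higher (with DDIT4, SREBF1 and TRIB3) and 4 lower at PD30. The lower ones were the arrestin-type regulators of glucose uptake ARRDC4 (3.80-fold) and TXNIP (1.80-fold), with ATF3 and SREBF2.

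Inorganic ion carriers were lower at PD30 in 7 of 8 cases. SLC20A2, a sodium-coupled phosphate importer, was at 41.6, 36.9 and 37.7 at PD30 and 142, 132 and 125 in the control. Its controls were 3.43-fold higher than PD30, with no library of one group near the other (log2 difference -1.75, SE 0.08, adjusted p = 1.85e-07). SLC20A1, the other phosphate importer of that family, was at 36.8, 32.9 and 37.1 against 71.3, 61.7 and 50.0 (1.71-fold lower, adjusted p = 0.000296). The potassium chloride exporter SLC12A4 was 1.91-fold lower and SLC12A2, the importer of sodium, potassium and chloride, 1.75-fold. The sodium proton exchanger SLC9A7 was 1.49-fold lower, and the mitochondrial carrier SLC25A30 1.78-fold. SLC24A1, a calcium exchanger, was the 1 member higher, at 2.54, 3.64 and 2.67 against 2.34, 1.46 and 1.33, where the groups nearly touch. Pump ATPases, a separate list of 27 genes, were 1 higher and 6 lower at PD30, the lower ones including the proton pump subunits ATP6AP1, ATP6AP2 and ATP6V0A1.

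Sugar carriers were lower in 3 of 4 cases, all 3 from the SLC2 hexose family. SLC2A6, a lysosomal hexose carrier, had signals of 10.1, 8.39 and 7.52 at PD30 and 23.7, 20.4 and 20.4 in the control (2.49-fold lower, adjusted p = 1.26e-05). SLC2A9, a urate carrier, was 2.69-fold lower and SLC2A12 2.09-fold. SLC37A2, a phosphate-linked sugar phosphate exchanger, was 1.54-fold higher. SLC2A1, the widely expressed glucose importer, was not in the PD30 table. Of 19 glycolysis genes, ENO2 (2.01-fold) and HK2 (1.95-fold) were lower at PD30 and none was higher.

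Both nucleotide carriers listed at PD30 were lower. SLC17A9, which loads ATP into vesicles and lysosomes, was at 1.32, 1.42 and 1.17 at PD30 against 8.76, 7.85 and 9.11 (6.58-fold lower, log2 difference -2.05, SE 0.12, adjusted p = 6.05e-07). This was the largest fold among the 27 SLC genes lower at PD30. SLC29A2, an equilibrative nucleoside transporter, was at 0.42, 0.32 and 0.3 against 1.48, 1.37 and 0.9, by the authors' deposited table a log2 fold change of -1.85 (adjusted p = 8.05e-05).

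Organic ion, amine and vitamin carriers were 3 higher and 7 lower. SLC17A5, the lysosomal sialic acid exporter, was 22.2 ± 0.898 at PD30 against 44.4 ± 0.713 (adjusted p = 3.24e-06), and the urea transporter SLC14A1 was 2.86 ± 0.496 against 5.91 ± 1.52. The thiamine importer SLC19A2 was 1.91-fold lower, with SLC22A17, SLC44A3, the folate importer SLC46A1 and the heme transporter SLC48A1 between 1.51-fold and 1.66-fold lower. SLC46A1 (adjusted p = 0.0178) did not pass without PD30 replicate 1 (0.0728), control replicate 2 (0.0651) or control replicate 3 (0.0505). SLC44A1, a choline transporter, was 1.76-fold higher and SLC18B1, a vesicular polyamine transporter, 1.67-fold. Among metal carriers, SLC40A1, the iron exporter ferroportin, was at 2.63, 3.32 and 2.51 against 1.36, 1.07 and 1.26 (2.29-fold higher, adjusted p = 0.000351). SLC31A2, a copper transporter of endosomes, was 1.85-fold lower.

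The lipid carriers held the largest fold of the SLC genes at PD30. SLC51B, the smaller subunit of the bile acid and steroid exporter, was at 3.46, 3.70 and 4.61 at PD30 and 0.08, 0.18 and 0.22 in the control. All PD30 libraries were clearly above controls that lay near 0, so the ratio of 24.5 rests on a very low denominator. Its partner subunit SLC51A went the other way, at 5.36, 3.50 and 4.94 against 7.88, 6.51 and 8.56 (1.66-fold lower, limma adjusted p = 0.00376). The authors' adjusted p for SLC51A was 0.0485, the highest among the SLC genes listed at PD30. SLC27A5, which activates bile acids and very long fatty acids, was 2.52-fold higher, at 8.99, 8.68 and 4.88 against 3.62, 2.01 and 3.31. Both carboxylate carriers were higher, the monocarboxylate transporter SLC16A5 2.14-fold and the mitochondrial dicarboxylate carrier SLC25A10 1.76-fold. SLC35F3 (3.27-fold) and SLC35F5 (1.67-fold), which have no class here, were lower.

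With GW8510, 31 SLC genes were listed, 16 higher and 15 lower. The authors listed 11.8% of 15574 tested genes, 4.59% as higher and 7.26% as lower. The median authors' log2 fold change was 0.59 over the SLC genes and -0.65 over all listed genes, where 51.6% and 38.8% of the genes were higher. None of the 31 had overlapping libraries, against 90.6% without overlap among all listed genes. All 27 genes with enough signal passed the limma test, where 95.4% of all genes tested did, and SLC1A2, SLC26A10, SLC5A2 and SLC7A14 were below the minimum signal and passed when no minimum was set. SLC35F3 and SLC6A17 reached the minimum only through the control. In this table the authors' log2 fold changes exceeded the signal ratios by a median of 0.12 over listed genes, and no SLC gene differed in direction between the scales. Transcripts of SLC genes higher with GW8510 had a median GC content of 59.4%, against 44.0% for those lower, and all listed genes showed 56.9% and 43.4%. The part of GC content in the calls was not tested.

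Nucleotide carriers were higher with GW8510 in 6 of 6 cases. SLC17A9, the vesicular ATP transporter, was at 16.7, 16.6 and 16.3 with GW8510 and 8.76, 7.85 and 9.11 in the control. The GW8510 libraries were close together and 1.93-fold above the controls (log2 difference 0.87, SE 0.11, adjusted p = 0.000115). SLC35C1, which brings GDP-fucose into the Golgi, was at 53.2, 52.3 and 51.4 against 33.0, 30.9 and 29.7 (1.68-fold, adjusted p = 0.000112). SLC25A25, a mitochondrial carrier of ATP-magnesium and phosphate, was at 14.0, 14.3 and 17.0 against 8.57, 9.33 and 8.98 (1.68-fold, adjusted p = 0.000503). SLC25A51, the mitochondrial NAD carrier, was 1.56-fold higher. It has a near-identical copy, SLC25A52, with which reads may be shared. SLC35A4 and the nucleoside and monoamine transporter SLC29A4 were 1.44-fold and 1.42-fold higher. The higher signals thus covered vesicle, Golgi, mitochondrial and surface carriers.

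Amino acid carriers were lower in 6 of 7 cases. SLC6A15 was at 3.85, 2.89 and 3.71 with GW8510 against 10.7, 9.62 and 5.76 (2.49-fold lower, adjusted p = 0.000751). SLC7A2, an importer of arginine and lysine, was at 3.58, 3.15 and 3.28 against 6.64, 7.96 and 7.81 (2.24-fold lower, adjusted p = 0.000157). SLC6A9 was 1.85-fold lower (adjusted p = 0.00246) and SLC6A17 1.89-fold, while SLC7A14 and the glutamate transporter SLC1A2 were lower at signals under 1. The exception was SLC38A5, an importer of glutamine, serine and glycine. Its signals were 38.1, 34.1 and 39.3 with GW8510 and 17.4, 22.2 and 16.6 in the control, 1.98-fold higher (adjusted p = 0.000134). From the list of partners, ASNS was 2.24-fold, PSAT1 1.70-fold and CHAC1, a glutathione-degrading enzyme, 2.61-fold lower, in all 5 of 31 being lower and 2 higher. HIF1A was also lower, at 41.8 ± 4.50 against 93.7 ± 17.0 (2.24-fold).

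**Figure D3:**
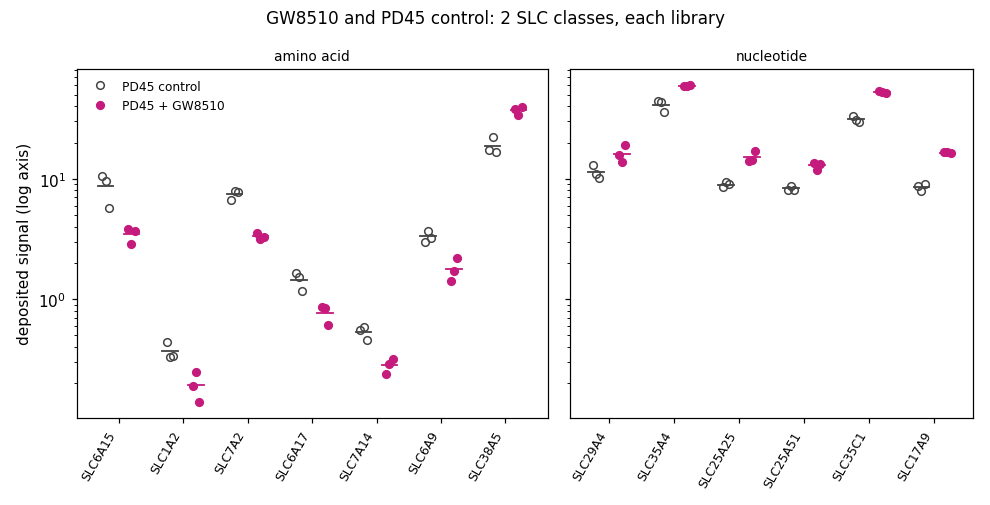
Deposited signal (log axis) of each library for the amino acid and nucleotide carriers listed with GW8510, with GW8510 filled, the PD45 control open and lines at the group means (n = 3 libraries each). SLC38A5 and all 6 nucleotide carriers sit above the controls, and the other 6 amino acid carriers sit below them.

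Inorganic ion carriers were 2 higher and 3 lower. SLC20A1, the phosphate importer, was at 25.9, 26.0 and 24.2 with GW8510 and 71.3, 61.7 and 50.0 in the control. The GW8510 libraries lay together, 2.40-fold below a wider spread of controls (log2 difference -1.22, SE 0.13, adjusted p = 4.58e-05). SLC4A2, an exchanger of chloride and bicarbonate, was 1.41-fold higher, while SLC4A7, an importer of sodium and bicarbonate, was 1.65-fold lower. The endosomal exchanger SLC9A9 was 1.66-fold lower, and SLC26A10, not protein-coding in RefSeq, 2.05-fold higher at a control signal of 0.623 ± 0.270.

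Vitamin and urea carriers split in direction. SLC14A1, the urea transporter, was at 1.75, 1.06 and 1.29 with GW8510 and 7.20, 6.30 and 4.24 in the control, the largest fold of the 15 lower genes (4.33-fold, adjusted p = 9.98e-05). SLC19A1, the reduced folate carrier, was at 17.4, 16.2 and 19.9 against 10.1, 8.83 and 8.40 (1.96-fold higher, adjusted p = 0.000166). Its family member SLC19A2, which imports thiamine, was 1.66-fold lower (adjusted p = 0.0121, and 0.0518 without control replicate 1). SLC22A5, the carnitine importer, was 1.49-fold higher (adjusted p = 0.013, and 0.0567 without GW8510 replicate 3). The 2 folate and thiamine carriers of the SLC19 family therefore went opposite ways.

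The remaining genes were few per class. SLC39A8, an importer of zinc and manganese, was 1.59-fold higher (adjusted p = 0.0146, but 0.0574 without GW8510 replicate 2 and 0.0628 without control replicate 2). The metallothioneins, zinc-binding proteins, were lower in all 3 listed cases, MT2A 2.34-fold, MT1X 2.05-fold and MT1E 1.79-fold. In the other tables the listed ones were higher, MT2A (1.98-fold) and MT1E (1.64-fold) at PD30 and MT1X with siSRC2 (1.55-fold) and siSRC4 (1.61-fold). SLC25A1, the mitochondrial citrate exporter, was 1.36-fold higher and the monocarboxylate carrier SLC16A6 2.09-fold lower. SLC2A13, an inositol importer, was 1.51-fold lower (adjusted p = 0.0355), and did not pass without GW8510 replicate 2 (0.116), GW8510 replicate 3 (0.0974), control replicate 1 (0.110) or control replicate 2 (0.0792). SLC5A2, the sodium glucose transporter of the kidney, was at 0.12, 0.41 and 0.87 against 0.05, 0 and 0.07, below the minimum signal (limma adjusted p = 0.0172 with no minimum). SLC35E3 and SLC35F6 were 1.44-fold and 1.38-fold higher, and SLC35F3 1.95-fold lower. SLC9A3-AS1 was 1.87-fold lower. Whether counting used strand is not stated, so its reads cannot be told apart from those of overlapping genes.

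With siSRC4, 34 SLC genes were listed, 19 higher and 15 lower, where the authors listed 8.77% of 14598 tested genes, 3.91% as higher and 4.86% as lower. The median authors' log2 fold change was 0.61 over SLC genes and -0.61 over all listed genes, where 55.9% and 44.6% of the genes were higher. Libraries did not overlap for 33 of the 34, against 88.8% of all listed genes. In the limma test 31 of 32 passed, where 93.7% of all genes tested did, and SLC7A14 and SLC7A8 were below the minimum signal but passed when no minimum was set. SLC7A7 and SLC46A3 reached the minimum only through the siSRC4 libraries. SLC19A2 did not pass (adjusted p = 0.0605, and 0.00743 with the replicate number as a block). Median transcript GC content was 57.0% for SLC genes higher and 42.8% for those lower, beside 57.3% and 42.6% over all listed genes, and its part in the calls was not tested.

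Sugar carriers were 3 higher and 2 lower with siSRC4. SLC2A1, also called GLUT1, was at 120, 134 and 166 with siSRC4 and 234, 226 and 259 in the control. All siSRC4 libraries were below all controls, by 1.71-fold in the means (log2 difference -0.78, SE 0.13, adjusted p = 0.000888). SLC2A1 was in no other table. SLC37A2 was at 7.26, 5.84 and 4.96 against 2.0, 1.47 and 1.57, 3.58-fold higher (log2 difference 1.38, SE 0.16, adjusted p = 0.000313). SLC37A4, which brings glucose 6-phosphate into the endoplasmic reticulum, was 1.61-fold higher, so both listed SLC37 genes were higher. SLC2A12 was 2.24-fold lower. SLC2A11 was 1.46-fold higher (adjusted p = 0.0233) but did not pass without siSRC4 replicate 2 (0.0551), control replicate 1 (0.0882) or control replicate 2 (0.0778). LDHB was the 1 of 19 glycolysis genes listed, 1.5-fold lower.

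Amino acid and peptide carriers were 4 higher and 6 lower. SLC7A11, the cystine importer, was at 10.3, 8.51 and 6.29 with siSRC4 and 20.1, 16.9 and 14.8 in the control (2.06-fold lower, log2 difference -0.98, SE 0.18, adjusted p = 0.00147). NFE2L2, which encodes NRF2, was 1.66-fold lower, and ATF3 1.91-fold and ASNS 1.56-fold. TRIB3 was the 1 partner gene higher. SLC25A22, the mitochondrial glutamate carrier, was at 18.6, 19.0 and 22.9 against 47.1, 45.2 and 34.8 (2.10-fold lower, adjusted p = 0.0005). SLC15A3, a lysosomal exporter of histidine and dipeptides, was at 1.77, 1.90 and 2.44 against 5.05, 5.35 and 4.55 (2.45-fold lower, adjusted p = 0.000532). SLC7A2 (1.85-fold), SLC38A4 (1.55-fold) and SLC7A14 (2.33-fold) were the other lower genes. SLC38A4 (adjusted p = 0.0193) did not pass without control replicate 1 (0.0506) or control replicate 2 (0.0744).

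Higher in the same class was SLC7A7, an exporter of cationic amino acids, at 1.77, 1.83 and 1.66 with siSRC4 against 0.54, 0.58 and 0.61 (3.04-fold). The lysosomal carriers SLC38A7, which exports glutamine, and SLC66A1, which exports cationic amino acids, were 1.93-fold and 1.53-fold higher. SLC38A7 signals were 29.4, 29.7 and 25.7 against 15.1, 15.1 and 13.8, a wide gap for small spreads (adjusted p = 0.000385). SLC7A8 was 1.99-fold higher at signals near or under 1. SLC7A7 and SLC7A8 are light chains of the SLC3A2 heavy chain like SLC7A11, so members of that subfamily went both ways.

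**Figure D4:**
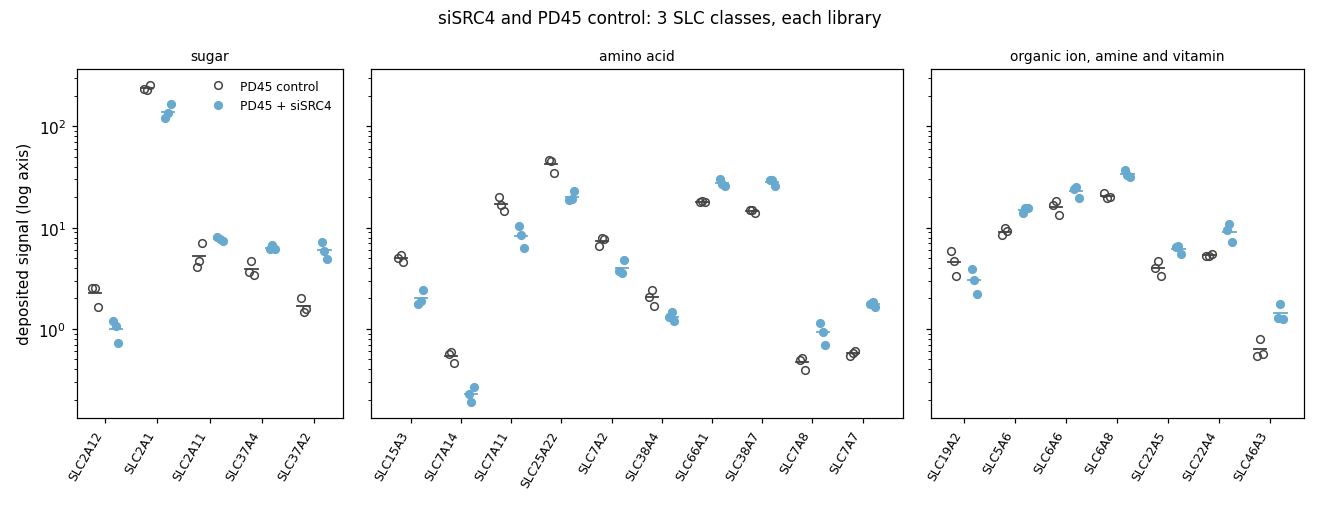
Deposited signal (log axis) of each library for sugar, amino acid and organic ion, amine and vitamin carriers listed with siSRC4, with siSRC4 filled, the PD45 control open and lines at the group means (n = 3 libraries each). SLC2A1, SLC7A11, SLC25A22 and SLC15A3 sit below the controls, SLC37A2, SLC38A7 and SLC7A7 above them, and only SLC19A2 has libraries of both groups at overlapping levels.

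Organic ion, amine and vitamin carriers were higher in 6 of 7 cases. SLC6A8, the creatine importer, was at 37.1, 33.1 and 31.4 with siSRC4 against 22.1, 19.5 and 20.1 (1.65-fold, adjusted p = 0.000832), and the taurine importer SLC6A6 was 1.44-fold higher. SLC5A6, importer of biotin and pantothenate, was 1.64-fold higher and SLC46A3, a lysosomal carrier, 2.26-fold. The related carnitine and organic cation transporters SLC22A4 (1.72-fold) and SLC22A5 (1.55-fold) were both higher. SLC39A4, a zinc importer, was at 10.4, 7.92 and 6.91 against 1.71, 1.83 and 4.83, 3.02-fold higher, with 1 control library well above the other 2 (log2 difference 1.39, SE 0.29, adjusted p = 0.00226). SLC39A9 was 1.55-fold higher and SLC39A11 1.43-fold lower. SLC39A genes therefore did not share a direction.

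Among the rest, SLC29A2 was 1.94-fold higher and SLC25A42, the mitochondrial coenzyme A carrier, 1.48-fold lower. SLC16A5 was 2.33-fold higher and the related SLC16A4 1.41-fold lower. SLC4A3 and SLC9A5, exchangers of bicarbonate and of protons, were 1.69-fold and 1.56-fold higher. SLC4A4, importer of sodium and bicarbonate, was 1.52-fold lower (adjusted p = 0.017, and 0.0672 without control replicate 1). SLC25A46, a protein of the outer mitochondrial membrane, and SLC12A8 were 1.71-fold and 1.54-fold lower.

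With siSRC2, 7 SLC genes were listed, 4 higher and 3 lower, where the authors listed 2.64% of 12549 tested genes, 1.38% as higher and 1.26% as lower. The median authors' log2 fold change was 0.61 over the SLC genes and 0.59 over all listed genes. All 7 passed the limma test, where 95.5% of all genes tested did, and 6 of 7 had no overlap, against 90.6% of all listed genes. SLC33A1, which carries acetyl-CoA into the endoplasmic reticulum, was at 19.0, 17.5 and 18.1 with siSRC2 and 12.7, 10.3 and 10.5 in the control (1.63-fold higher, adjusted p = 0.000557). SLC4A7, importer of sodium and bicarbonate, was at 14.2, 12.5 and 10.7 against 8.25, 7.16 and 7.85 (1.61-fold higher, adjusted p = 0.00143). Ferroportin, SLC40A1, was at 2.41, 2.05 and 1.88 against 1.36, 1.07 and 1.26 (1.72-fold higher, adjusted p = 0.00357). These 3 genes had every siSRC2 library above every control. The choline transporter SLC44A1 was 1.58-fold higher. Median GC content was 41.6% for the 4 SLC genes higher and 55.6% for the 3 lower, beside 49.3% and 53.7% over all listed genes. SLC2A12 was 1.97-fold and SLC25A42 1.45-fold lower. SLC43A3, a purine nucleobase carrier, was at 3.60, 6.22 and 3.87 against 7.58, 8.46 and 5.83, where 1 siSRC2 library overlaps the controls (adjusted p = 0.0132, and 0.0530 without siSRC2 replicate 3).

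All 4 comparisons share the PD45 control libraries, so genes listed in 2 tables are given side by side. Between PD30 and GW8510, 9 genes were in both tables (20.5% of the PD30 genes and 29% of the GW8510 genes). Between PD30 and siSRC4 there were 8 (18.2% and 23.5%), between GW8510 and siSRC4 4 (12.9% and 11.8%), between PD30 and siSRC2 3 (6.82% and 42.9%), between the siRNAs 2 (28.6% of siSRC2 and 5.88% of siSRC4), and between GW8510 and siSRC2 1. Over all listed genes, these pairs in the same order shared 606, 412, 322, 153, 104 and 103 genes. All listed genes numbered 2845 at PD30, 1845 with GW8510, 331 with siSRC2 and 1280 with siSRC4. Directions over all shared genes were not analysed here. Of the 18 genes in 2 tables, 12 had the same direction in both and 6 had opposite ones. Of the 3 in 3 tables, SLC2A12 and SLC19A2 were lower in each, and SLC7A14 was higher at PD30 and lower with GW8510 and siSRC4.

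**Figure D5:**
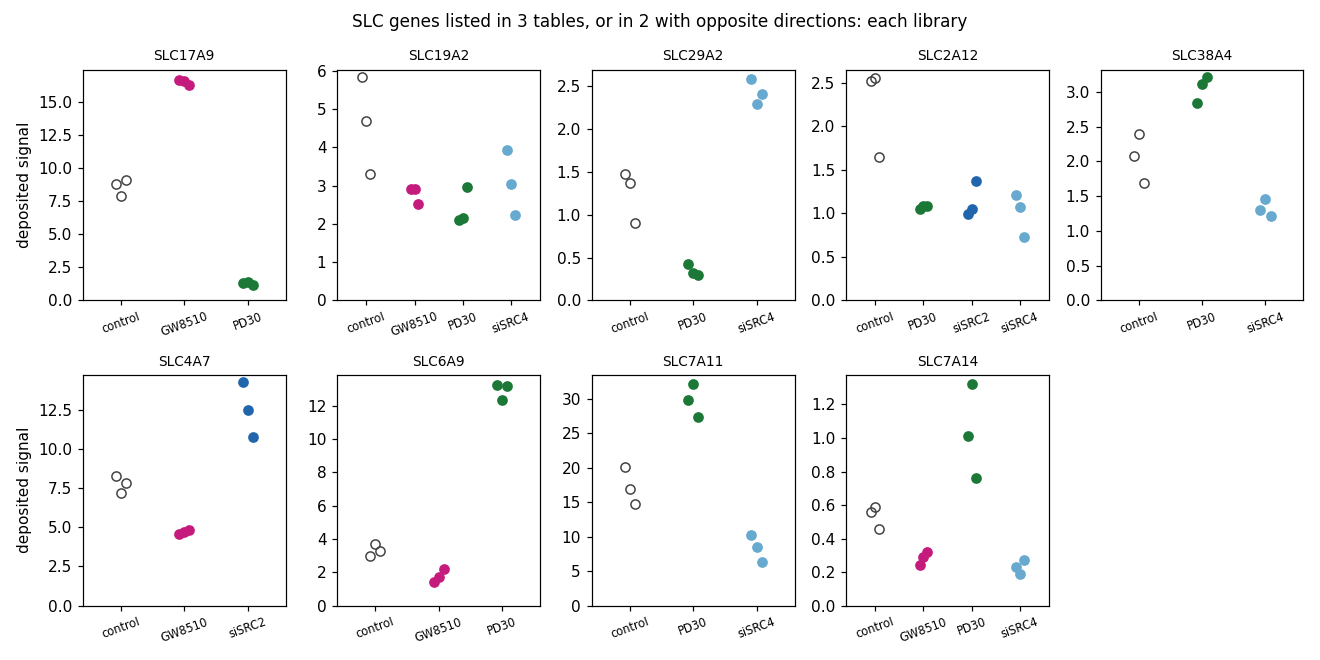
Deposited signal (linear axis from 0) of each library for the 9 SLC genes listed in 3 tables or in 2 with opposite directions, with the shared PD45 control open and listed groups filled (n = 3 libraries each). SLC17A9 is low at PD30 and high with GW8510, SLC6A9 and SLC7A11 are high at PD30 and low with GW8510 or siSRC4, and SLC2A12 is lower in each of 3 groups.

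Genes listed in both tables were compared directly between the treated groups and PD30. For genes listed in opposite directions, that choice already places the control between the groups and fixes the direction of the difference. For GW8510 and PD30, 5 of 6 SLC genes with enough signal passed, 1 higher and 4 lower with GW8510, where 66.4% of all genes in both tables passed. That count includes SLC17A9 and SLC6A9, whose passing supports nothing because of their opposite listing. SLC17A9, listed in opposite directions, was 2.93 higher on the log2 scale with GW8510 than at PD30 (SE 0.11), with means of 16.5 ± 0.182 and 1.30 ± 0.126 on either side of the control at 8.57 ± 0.650. SLC6A9, also listed in opposite directions, had a log2 difference of -2.33 (SE 0.13), from means of 1.79 ± 0.399 and 12.9 ± 0.496 around a control of 3.32 ± 0.370.

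Of 4 tested genes below the control in both groups, 3 were lower with GW8510 than at PD30. SLC20A1 was 25.4 ± 0.993 with GW8510 and 35.6 ± 2.36 at PD30, a log2 difference of -0.47 (SE 0.10, adjusted p = 0.00173). SLC14A1 was 1.37 ± 0.351 and 2.86 ± 0.496 (-0.71, adjusted p = 0.00151), and SLC6A15 3.48 ± 0.519 and 5.04 ± 0.393 (-0.43, adjusted p = 0.0113). SLC19A2 was not called different between GW8510 and PD30 (0.16, SE 0.13, adjusted p = 0.319, with log2 differences of 0.09 without PD30 replicate 1 and 0.27 without PD30 replicate 3). SLC35F3 (0.980 ± 0.262 with GW8510, 0.583 ± 0.0451 at PD30) and SLC6A17 (0.770 ± 0.139 and 0.553 ± 0.197) lay the other way round but were below the minimum signal, as was SLC7A14. With no minimum, limma gave adjusted p = 0.0252 for SLC35F3 and 0.158 for SLC6A17.

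For siSRC4 and PD30, 4 of 7 SLC genes passed, where 60.4% of all genes in both tables did. Of the 4, SLC7A11, SLC38A4 and SLC29A2 were listed in opposite directions, so that their passing supports nothing, and SLC37A2 was not. SLC7A11 was 8.37 ± 2.01 with siSRC4 and 29.8 ± 2.40 at PD30, with the control between them at 17.3 ± 2.69 (log2 difference -1.74, SE 0.16). SLC38A4 also lay on opposite sides of the control and had a log2 difference of -0.80 (SE 0.13). SLC29A2 was opposite too, 2.43 ± 0.146 with siSRC4 and 0.347 ± 0.0643 at PD30, but reached the minimum signal only through the siSRC4 libraries. SLC37A2 was above the control in both and 0.96 higher with siSRC4 than at PD30 (SE 0.16, adjusted p = 0.000222). SLC16A5 (0.11, SE 0.17), SLC19A2 (0.24, SE 0.18) and SLC2A12 (-0.06, SE 0.13) did not pass. The SLC19A2 difference was 0.09 without siSRC4 replicate 1 and 0.40 without siSRC4 replicate 3.

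Between the treatments, no SLC gene differed by the limma test: 0 of 3 passed for GW8510 and siSRC4 (34.7% of all genes in both tables) and 0 of 2 for the siRNAs (27%), with 0 at an unadjusted p under 0.05 in each. SLC2A12 was 1.14 ± 0.204 with siSRC2 and 1.0 ± 0.247 with siSRC4 (log2 difference 0.10, SE 0.14), beside 1.07 ± 0.0208 at PD30 and 2.24 ± 0.514 in the control. SLC25A42 was 6.50 ± 0.699 and 6.38 ± 0.110 (log2 difference 0.02, SE 0.12). SLC7A2 was 3.34 ± 0.221 with GW8510 and 4.04 ± 0.672 with siSRC4 (log2 difference -0.21, SE 0.17, and -0.10 without siSRC4 replicate 3). SLC4A7 was listed as lower with GW8510 (4.70 ± 0.140) and higher with siSRC2 (12.5 ± 1.75), and that difference was not tested.

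Carriers counted in the SLC superfamily under other symbols, a list of 37 genes, were 3 higher and 6 lower at PD30, 3 higher with GW8510, 1 lower with siSRC2 and 2 higher with siSRC4. FLVCR2, a choline and heme transporter, was 2.38-fold higher with GW8510 and 1.99-fold with siSRC4. SFXN3, a mitochondrial sideroflexin, was 2.18-fold lower with siSRC2, a larger fold than that of any SLC-named gene there. At PD30 the prostaglandin carrier SLCO2A1 was 3.11-fold lower, and MPC2, a subunit of the mitochondrial pyruvate carrier, 1.58-fold. ABC transporters, a list of 30, were 6 higher and 3 lower at PD30, 2 higher and 3 lower with GW8510, and 2 of each with siSRC4. The cholesterol exporter ABCG1 was 7.82-fold higher at PD30, at 1.69 ± 0.132 against 0.217 ± 0.0551, and ABCC4, an exporter of cyclic nucleotides and prostaglandins, was 1.90-fold lower with GW8510 and 1.55-fold with siSRC4.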

How the data were processed

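The members and gene lists were chosen with earlier results of these data known. Per the file headers, the authors deposited 4 tables of selected genes, with a normalized signal per library, group means, a fold ratio, a log2 fold change, and a p-value with its adjusted value. Whether the signal is TPM or FPKM is not given in the sources used here. CASAVA, HISAT2, StringTie, RSEM, DESeq2 and edgeR are named with no version or role, and with the mouse build GRCm38, per the submitters' processing notes. The gene identifiers are human, so no gene coordinates were taken from the files. RNA was extracted with Trizol, per the labels. Library names decided the siRNA group: siSRC4 libraries stand in a table with a mean column titled siSRC2, and siSRC2 libraries in one titled siSRC. The number of genes the authors tested was inferred from their p-values and adjusted values.

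Genes were tested with limma 3.58.1 (R 4.3.3) on log2(signal + 1), with a trended prior, over 6 libraries, a minimum mean signal of 1 and Benjamini-Hochberg adjustment over the tested table at 0.05, and the method was tested on simulated data. The same fit compared groups directly over genes in both tables. Other calculations used Python 3.11.15, pandas 2.3.3 and scipy 1.17.1, and plots matplotlib 3.10.9. Alternatives were a pseudocount of 0.1, no filter, no trend, an authors' fold of 2, a replicate block and each library left out. Same-numbered siSRC4 and control libraries deviated together (correlations over genes of 0.122, 0.107 and 0.136) and may be paired, although the labels name no shared batch. The tests given here are unpaired, except where the replicate block is named. Each siSRC2 and each siSRC4 library was best correlated with the control library of its own number (siSRC2 0.0891, 0.0883 and 0.218). No PD30 or GW8510 library was. Named SLC genes were up to 3 per class, direction and comparison with the largest ratio of means at a mean signal of at least 1, those in 3 tables, and a list of well known carriers. The remaining members were named to account for each, except 1 that is counted but not reported here, and further list genes were named after their values were seen. Promoters came from RefSeq (GRCh38.p14), and 21 members without an entry were not searched.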

Additional observations from a re-analysis of the deposited data

How the results depend on the processing

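Of the 44 SLC genes listed at PD30, 15 had an authors' fold of 2 or more, against 55.6% of all genes listed there. With GW8510, 9 of 31 SLC genes did, against 29.6% of all listed genes. The SLC counts were 1 of 7 with siSRC2, against 15.7% of all listed genes, and 10 of 34 with siSRC4, against 24.1%. The counts passing limma stayed within 1.5 times under the other alternatives run. Of 126 tests of single SLC genes, 114 passed. The tests cover genes the authors had already selected, mostly on the same libraries, so this count is not independent support. It also includes genes that reached the minimum signal only through the group where they were high and so had to differ. A pseudocount of 0.1, no filter on low signal and no trend left all 126 tests on the same side of the threshold and in the same direction. With the replicate block, 124 did, and SLC25A40 at PD30 (adjusted p = 0.0205) and SLC19A2 with siSRC4 (adjusted p = 0.00743) then passed. The block changed no other call. Leaving out 1 library kept 721 of these calls, lost 18, gained 4 and reversed the direction of 6 differences that did not pass. SLC25A40 passed without PD30 replicate 2 (0.0254) or control replicate 1 (0.0212), and SLC19A2 with siSRC4 without siSRC4 replicate 1 (0.0222) or control replicate 3 (0.0247). The reversals, as ranges of the log2 difference, were SLC16A5 (-0.0438 to 0.232) and SLC2A12 (-0.132 to 0.0449) for siSRC4 against PD30, SLC19A2 (-0.240 to 0.0691) and SLC22A5 (-0.151 to 0.0249) for GW8510 against siSRC4, and SLC25A42 (-0.0409 to 0.0933) and SLC2A12 (-0.00575 to 0.171) for siSRC2 against siSRC4. Their cause was not tested. The tables hold selected genes at unknown depth, so genes outside them were not analysed here. Listed SLC genes under the minimum signal passed against the control when no minimum was set, SLC1A2 with GW8510 closest to the threshold (adjusted p = 0.0431).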
